A study of Mus musculus with 21 samples.

Results

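Deletion of the long intergenic noncoding RNA (lincRNA) linc-Brn1b was examined in the brain of mice at postnatal day 7 (P7), by comparing the transcriptome of knockout animals with that of wild-type animals. The comparison holds the 18805 genes of 40770 in the deposited table whose status was OK for knockout against wild type at this age. Expression is in FPKM (fragments scaled to transcript length and to the number of mapped fragments), and a difference below is log2(FPKM + 1) in knockout minus log2(FPKM + 1) in wild type.

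The series holds 21 RNA-Seq libraries from 3 lincRNA knockout strains, of which 4 come from P7 brain. Both P7 groups have 2 libraries: the wild type is linc-Brn1b+/+ and the knockout is linc-Brn1b-/-, a germline deletion in which a cassette with a lacZ reporter and a neomycin resistance gene stands in place of the lincRNA gene. The knockout therefore carries the cassette as well as the loss, and the wild type carries neither. The strain came from hybrid 129S6SvEv/C57BL/6N embryonic stem cells and was crossed to C57BL/6J. Total RNA of whole brain was the input for mRNA libraries. Telencephalon groups of the same strain at 2 embryonic ages, marked E, are used below for comparison. Each of them has 2 libraries, except the knockout of the later embryonic age, which has 3. The table gives 1 pooled value per group, so the spread between animals and the depth of each library are unknown, and no difference below carries an error, a test or a p-value. A gene is counted as higher or lower in knockout where its difference is at least 0.5 in size, which is a ratio of 1.41 for a gene well above 1 FPKM. By this measure 524 genes (2.79%) were higher in knockout and 542 (2.88%) were lower, and the median over all tested genes was 0.01.

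linc-Brn1b lies beside Pou3f3, which encodes BRN1, a transcription factor of the POU class III family. BRN1 and its paralog BRN2 act together in the progenitors and migrating neurons that build the upper layers of the cerebral cortex. Upper layer neurons include the callosal neurons that join the hemispheres and the layer IV neurons that receive thalamic input, which form the barrels of the somatosensory cortex.

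The oligonucleotides that define the deleted gene were placed on the mouse genome (build mm9), to show which piece of sequence the expression values and the genotype refer to. All 8 had a single exact match, and all lay inside the linc-Brn1b entry of the table, which spans chr1:42763906-42770299. The quantitative RT-PCR primers match sites 3875 bp apart from end to end in the genome. The loss-of-allele assays, which score the wild-type copy of the gene in genomic DNA, have amplicons of 65 bp at chr1:42769960-42770024 and of 107 bp at chr1:42764079-42764185, near either end of the entry. Their sequences, 5′ to 3′ with no base set in capitals, are as follows.
quantitative RT-PCR forward primer, chr1:42769068-42769088, minus strand: ttttccacgttctttttgctc
quantitative RT-PCR reverse primer, chr1:42765214-42765234, plus strand: ccatctgcagggaaagttaca
upstream assay forward primer, chr1:42770006-42770024, minus strand: ccggagctttcgctttcag
upstream assay reverse primer, chr1:42769960-42769981, plus strand: ccgaccaagttcactttccatc
upstream assay probe, chr1:42769983-42770005, minus strand: tgggtgaccctcttccagcgaag
downstream assay forward primer, chr1:42764166-42764185, minus strand: tgccagcttggcttgtactc
downstream assay reverse primer, chr1:42764079-42764099, plus strand: gctcccaaaggttcctgtgtc
downstream assay probe, chr1:42764138-42764163, minus strand: caaagtgggcactgtgtctgacctgg

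Of the 20 probes used for single molecule FISH of linc-Brn1b, 18 had 1 exact match, all antisense to a transcript read from the minus strand. Among them 11 lay wholly inside the entry, and the others reached past its upper end, the farthest at chr1:42770523-42770542. Part of the sequence probed is therefore not part of the entry quantified here.

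The neighbor whose promoter is given here is Pou3f3, because it is the protein-coding gene next to the deletion. The entry of the lincRNA 2610017I09Rik, also called linc-Brn1a, lies just below it. The paper describes linc-Brn1a and Brn1 as sharing a bidirectional promoter. The 250 bases before its RefSeq start lie on the plus strand at chr1:42695518-42695767 of build GRCm38.p6 and match mm9 exactly at chr1:42752363-42752612. On mm9 this stretch begins 692 bases above the upper coordinate of the 2610017I09Rik entry. It ends 1378 bases before the Pou3f3 entry of the table, which starts at the annotated start codon. Capitals mark the letters CCAAT, which occur 3 times here when both strands are searched (ATTGG on the other strand).
Pou3f3: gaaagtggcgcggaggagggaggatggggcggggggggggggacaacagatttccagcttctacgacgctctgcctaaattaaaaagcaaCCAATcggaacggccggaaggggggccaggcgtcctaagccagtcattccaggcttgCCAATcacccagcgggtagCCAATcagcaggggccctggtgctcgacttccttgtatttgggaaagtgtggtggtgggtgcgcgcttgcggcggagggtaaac
At least 1 CCAAT was present in 33.9% of the 32851 promoter windows of the same length in RefSeq, and 3 or more in 2.79%. The octamer ATGCAAAT, a sequence that POU factors bind, was not among the letters of this window and was present in 526 of all windows.

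The targeted transcript was measured first. linc-Brn1b was at 0.799 FPKM in wild type and was listed at 0 in knockout. AK011913, an entry over the same coordinates, was at 1.06 in wild type and 0.0123 in knockout. In the wild-type telencephalon at E15.5 the lincRNA was at 2.50 FPKM, and the knockout was listed at 0 at both E13.5 and E15.5, with differences of -1.38 and -1.81. Its level in the P7 brain was thus low in the wild type itself, and the loss is a difference of -0.85 on this scale.

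Pou3f3, on the plus strand at chr1:42753991-42757054 and 6851 bp below linc-Brn1b, was at 22.7 in wild type and 5.81 in knockout, which left 25.6% of the wild-type value. The noncoding transcript 2900092D14Rik, which follows Pou3f3 by 126 bp at chr1:42757181-42760021, was at 10.5 in wild type and 2.72 in knockout, or 26% of wild type. These neighbors kept nearly the same share of their wild-type level as each other. On the far side of Pou3f3 the order of the groups was the opposite: 2610017I09Rik, also called linc-Brn1a or Pantr1, at chr1:42705045-42751670, was at 79.7 in wild type and 453 in knockout, a ratio of 5.68. Still further, linc-Pou3f3-1 at chr1:42643840-42687203 was at 0.319 in wild type and 2.49 in knockout. Its ratio was 7.81. On the other flank of the deletion, linc-Mrps9-1 at chr1:42795859-42809844 was at 0.393 in wild type and 0.00510 in knockout, a difference of -0.47, which stays just inside the threshold.

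Within 1 Mb of linc-Brn1b the table has 26 entries, of which 16 were tested, 2 were higher (2610017I09Rik and linc-Pou3f3-1) and 4 were lower (Pou3f3, 2900092D14Rik, AK011913 and linc-Brn1b itself). Beyond these and linc-Mrps9-1, the tested neighbors differed little. Mrps9, a mitochondrial ribosomal protein gene, was at 15.8 in wild type and 14.8 in knockout. Gpr45, an orphan receptor gene, was at 3.33 in wild type and 4.24 in knockout, a difference of 0.27. Tgfbrap1 differed by 0.05, while Fhl2 was at 11.5 in wild type and 11.7 in knockout and Nck2, an adaptor protein gene, at 15.3 in wild type and 14.1 in knockout. The share past the threshold in either direction was 37.5% within 1 Mb, 13.2% of 68 tested entries within 5 Mb and 6.76% of 222 within 20 Mb. The counts within 5 Mb hold all 6 of the entries within 1 Mb. Of these 6, linc-Brn1b and AK011913 lie over the deleted gene itself, so their lower values were fixed by the deletion. Over all tested genes 2.79% were higher and 2.88% were lower.

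**Figure D1:**
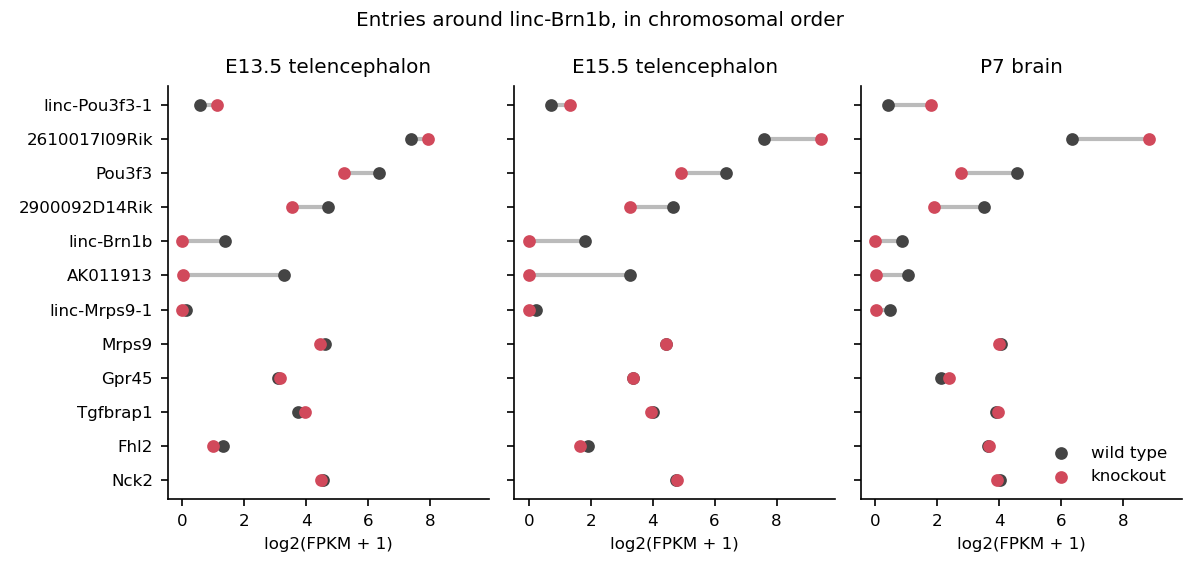
Level, as log2(FPKM + 1), of 12 entries around linc-Brn1b in chromosomal order, with 1 point per group (gray, wild type; red, knockout) at each of 3 ages and no error because 1 value per group was deposited. At P7 the bars are long from linc-Pou3f3-1 to AK011913, with 2610017I09Rik and linc-Pou3f3-1 to the right in knockout and Pou3f3 and 2900092D14Rik to the left, and are short from Mrps9 onward.

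The other genes of the POU class III family are expressed in the same brain. Pou3f2, which encodes BRN2, was at 5.46 in wild type and 7.71 in knockout, a difference of 0.43 that stays inside the threshold. Pou3f1, also known as Oct6, was at 8.09 in wild type and 9.01 in knockout, and Pou3f4 was at 3.26 in wild type and 3.99 in knockout. In wild type Pou3f3 was the highest of the 4 per length of transcript, and in knockout it was below Pou3f1 and Pou3f2. The summed level of the 4 genes was 39.5 FPKM in wild type and 26.5 in knockout.

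Both groups are labelled as brain, which the paper describes as whole brain, and markers of brain regions were used to check that description. Hox genes, which pattern the hindbrain and spinal cord and are silent in more rostral brain, were present in wild type and nearly absent in knockout: of the 10 tested in the list, 9 were lower in knockout. Hoxa5 was at 5.06 FPKM in wild type and listed at 0 in knockout. Hoxb5 was at 3.61 in wild type and 0.0165 in knockout. Hoxb3 was at 1.54 in wild type and 0.0221 in knockout, and Hoxa4 was at 1.52 in wild type and 0.0210 in knockout. Together the 10 genes summed to 16.0 FPKM in wild type and 0.0907 in knockout, where 4 of them were listed at 0 and the highest was at 0.0221. Their values in wild type ran from 0.377 to 5.06 FPKM. With knockout values this low, their status of OK rested on the wild-type value, which favors genes lower in knockout. Over all tested genes 2.88% were lower. In the telencephalon of either genotype at E13.5 and E15.5, a tissue without hindbrain, no Hox gene of the list was above 0.00996 FPKM. Several Hox entries of a cluster share a merged locus in the table, so reads may be split among them.

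Other hindbrain genes were lower to differing degrees. Slc6a5, the glycine transporter of inhibitory neurons in the hindbrain and spinal cord, was at 3.93 in wild type and 0.323 in knockout. The serotonergic genes of the raphe nuclei were lower to a lesser degree: Slc6a4, the serotonin transporter, was at 4.90 in wild type and 3.04 in knockout, and Tph2, the rate-limiting enzyme of neuronal serotonin synthesis, was at 2.87 in wild type and 1.65 in knockout. Of the 22 tested genes of the hindbrain and midbrain list, 14 were lower and 2 were higher, with a median of -0.66. The 14 include the 9 Hox genes given above, whose status of OK rested on the wild-type value. Those that were higher mark dopamine neurons, whose nuclei lie in the midbrain: Th, the rate-limiting enzyme of dopamine synthesis, was at 4.47 in wild type and 6.89 in knockout, and Slc6a3, the dopamine transporter, was at 2.91 in wild type and 4.56 in knockout. Th is also made in the olfactory bulb.

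Cerebellar genes were lower as well. Granule neurons are the most numerous cells of the cerebellum and at P7 their precursors are still dividing in its outer layer. Neurod1, a proneural factor of granule neurons, was at 25 in wild type and 8.37 in knockout, Barhl1 was at 4.25 in wild type and 0.939 in knockout, and Zic1, a zinc finger factor of the granule lineage, was at 38.8 in wild type and 16 in knockout. Atoh1, which defines granule precursors, was at 0.507 in wild type and 0.0148 in knockout, and Gabra6, a receptor subunit of mature granule neurons, was at 0.519 in wild type and 0.0324 in knockout. For Atoh1 and Gabra6 the status of OK rested on the wild-type value, which favors genes lower in knockout. In the granule list 10 of 14 genes were lower, against 2.88% of all tested genes. None was higher, and the median was -0.64. The exception in sign was Etv1, at 14.9 in wild type and 18.2 in knockout, which is also a marker of cortical layer V. In the Purkinje list 4 of 11 were lower and none was higher, with a median of -0.22. Pcp2, which is made by Purkinje neurons and retinal bipolar cells, differed by -2.66 from 14.7 FPKM in wild type, and Car8 was at 15.2 in wild type and 6.67 in knockout. Calb1 and Itpr1, which many other neurons also make, differed by -0.08 and 0.04. Slc1a6 was at 11.1 in wild type and 9.33 in knockout, Rora differed by -0.07 and Foxp4 by -0.05. Gpr63 had a higher value in knockout, at 2.18 in wild type and 3.45 in knockout, a difference of 0.49. Cnpy1 and En2, genes of the midbrain-hindbrain boundary, were at 6.19 against 0.671 FPKM and 1.87 against 0.577 FPKM, wild type first.

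Pituitary hormone genes were near 0 in knockout, while several hypothalamic peptide genes were higher. Pomc, the precursor of corticotropin, is made in the pituitary and in the arcuate nucleus, and was at 26.6 in wild type and 1.15 in knockout. Gh, growth hormone, was at 6.19 in wild type and 0.0157 in knockout, and Cga, the shared subunit of the glycoprotein hormones, was at 0.906 FPKM in wild type and listed at 0 in knockout. In contrast Avp, vasopressin, was at 2.98 in wild type and 11.1 in knockout, Oxt, oxytocin, at 1.80 in wild type and 4.29 in knockout, Pmch, melanin-concentrating hormone, at 5.03 in wild type and 8.94 in knockout, and Hcrt, orexin, at 1.23 in wild type and 2.50 in knockout. In the hypothalamus and pituitary list 5 of 17 genes were higher and 3 were lower, with a median of 0.07. For Gh and Cga the status of OK rested on the wild-type value, which favors genes lower in knockout.

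RNA of the hindbrain, the cerebellum and the pituitary was thus less represented in the knockout values than in the wild-type values. In pooled tissue, fewer cells of a type and less RNA per cell cannot be told apart, and neither can genotype and the extent of the dissection. The part of these regional differences in each result that follows was not tested.

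**Figure D2:**
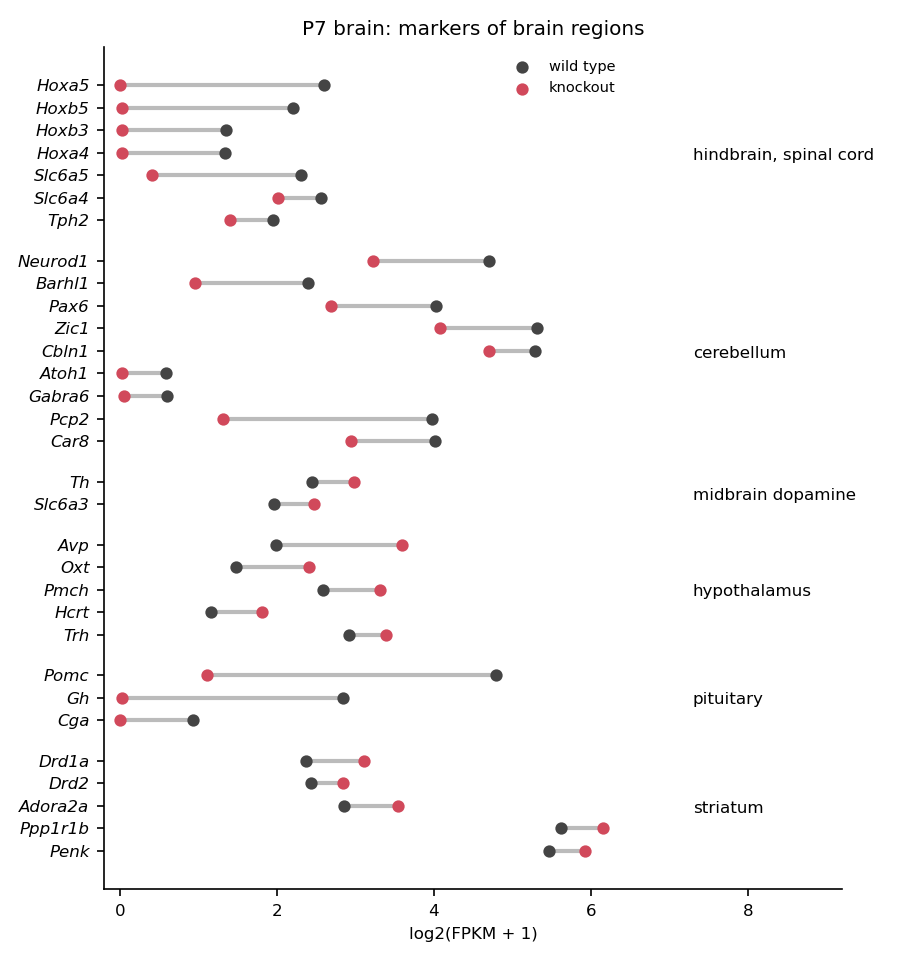
Level at P7, as log2(FPKM + 1), of list genes that mark brain regions, grouped by region (gray, wild type; red, knockout; 1 value per group, no error). Knockout points of the Hox genes, Atoh1, Gabra6, Gh and Cga sit at or close to 0, and those of the dopamine, hypothalamic and striatal genes lie to the right of wild type.

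The layers of the cerebral cortex were examined next, because the paralogous factors BRN1 and BRN2 act in upper layer neurons. None of the 18 tested genes of the upper layer list was past the threshold, and its median was 0.02. Cux1, a homeobox gene of layers II to IV, was at 39.9 in wild type and 33.2 in knockout, a difference of -0.26, and its relative Cux2 was at 9.86 in wild type and 11.8 in knockout, a difference of 0.24. Mef2c was at 188 in wild type and 178 in knockout. The list spanned -0.33 for Cntn6 to 0.48 for Wfs1, and its summed level was 547 FPKM in wild type and 542 in knockout.

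In the list of layer IV and barrel genes 3 of 13 were higher, with a median of 0.12. They were Thrsp, at 3.37 in wild type and 6.43 in knockout, Kcnh5, a potassium channel gene, at 2.26 in wild type and 3.82 in knockout, and Whrn, at 4.94 in wild type and 7.60 in knockout. Rorb, the nuclear receptor that marks layer IV, was at 2.58 in wild type and 2.89 in knockout, a difference of 0.12. Among 19 deep layer genes 2 were higher and 1 was lower, with a median of 0.21. Ctgf, a subplate gene, was at 7.58 in wild type and 12.7 in knockout, and Nr4a2, made in the subplate and in dopamine neurons, was at 8.73 in wild type and 14.9 in knockout. Zfpm2 was at 9.11 in wild type and 6.11 in knockout. Crym was at 79 against 112 FPKM, Tbr1 at 13.8 against 18.2 FPKM and Fezf2, the determinant of subcerebral projection neurons, at 10 against 13.2 FPKM, wild type first, all inside the threshold. Of the 10 genes of thalamic and afferent neurons only Slc6a4 was past the threshold, and of the 14 hippocampal genes only Spink8, at 0.352 in wild type and 1.61 in knockout.

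Markers of dividing cells were lower in knockout as a group. Of the 52 tested cell cycle genes 35 (67.3%) were lower, none was higher and all 52 had a difference below 0, with a median of -0.57. Top2a, the topoisomerase of mitosis, was at 13.1 in wild type and 5.64 in knockout. Ccna2, cyclin A2, was at 9.81 in wild type and 4.14 in knockout, and Mki67, whose product Ki67 labels cycling cells, was at 7.33 in wild type and 3.18 in knockout. Rrm2, a subunit of ribonucleotide reductase, was at 11.7 in wild type and 5.17 in knockout. Of the 6 Mcm genes, whose products form the replicative helicase, 5 were lower, and the 6 differences ran from -0.83 to -0.38. The smallest differences in the list belonged to the E cyclins, Ccne1 at -0.01 and Ccne2 at -0.03. Hmgb2, a chromatin protein that is abundant in dividing cells and was among the 15 lowest named genes, was at 29.9 in wild type and 8.67 in knockout. The summed level of the list was 327 FPKM in wild type and 195 in knockout, 59.5% of wild type.

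Progenitor genes were lower in part. Of 20 radial glia and neural stem cell genes 8 were lower and none was higher, with a median of -0.38. Fabp7, a fatty acid binding protein of radial glia, was at 919 in wild type and 508 in knockout, Vim, vimentin, at 64.8 in wild type and 39.4 in knockout, and Tnc, tenascin C, at 19.6 in wild type and 9.71 in knockout. Pax6 was at 15.3 in wild type and 5.43 in knockout and is also made by granule neurons. Sox2 was at 22.3 in wild type and 17.4 in knockout, and Hes5, a Notch target, at 10.9 in wild type and 12.8 in knockout, neither past the threshold. Of the 13 intermediate progenitor genes 3 were lower, Mfap4 at 10.8 in wild type and 2.29 in knockout, Neurod1 as above, and Insm1 at 5.45 in wild type and 1.38 in knockout. Eomes, which encodes TBR2 and defines cortical intermediate progenitors, differed by -0.16, from 3.74 to 3.24 FPKM. The olfactory bulb and neuroblast list as a whole went the other way, with a median of 0.34 and 14 of 19 genes above 0. In it 2 genes were higher and 3 were lower. Dcx, doublecortin, was at 104 in wild type and 71.8 in knockout, Sox11 was at 14.7 in wild type and 9.67 in knockout and Igfbpl1 was at 13.3 in wild type and 5.51 in knockout, while Doc2g, a gene of olfactory bulb projection neurons, was at 3.83 in wild type and 7.99 in knockout. The dividing cells of the P7 brain include the cerebellar granule precursors, whose marker Atoh1 was near 0 in knockout, and their part in the cell cycle differences was not tested.

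Among glia, myelin genes stood apart from the genes of their precursors. Of 25 myelin genes 11 were lower and none was higher, with a median of -0.44. Mbp, myelin basic protein, was at 292 in wild type and 161 in knockout and Mobp at 37.7 in wild type and 19.9 in knockout. Mag, a myelin adhesion protein, was at 19 in wild type and 11.2 in knockout, and Mal was at 5.93 in wild type and 2.36 in knockout. Other members differed little, such as Opalin at 0.07 and Ndrg1 at 0.04. In the precursor list 1 of 15 was lower and 2 were higher, with a median of 0.05. Pdgfra, the growth factor receptor of the precursors, was at 32.4 in wild type and 27.7 in knockout, and Gpr17, a receptor of cells between precursor and myelinating cell, was at 14.7 in wild type and 25.1 in knockout.

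Astrocyte genes went both ways, 2 of 21 higher and 3 lower, with a median of -0.06. Aldh1l1 was at 39.3 in wild type and 19.4 in knockout and Aqp4, the water channel of astrocyte endfeet, at 81 in wild type and 56.1 in knockout, whereas Slc1a2, the glutamate transporter that increases as astrocytes mature, was at 67.7 in wild type and 111 in knockout. Of 23 microglial genes 3 were higher and none was lower. They were Tmem119 at 2.26 in wild type and 4.35 in knockout, P2ry13 at 1.53 in wild type and 3.06 in knockout and P2ry12, a purinergic receptor, at 7.49 in wild type and 12.2 in knockout, while C1qa and Csf1r differed by 0.17 and 0.18. Endothelial genes had a median of 0.11 with 1 of 23 higher, and pericyte genes a median of -0.12 with none of 15 past the threshold.

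Genes of the lining and covering tissues of the brain had differences mostly below 0. All 22 meningeal and fibroblast genes had a difference below 0 and 5 were lower by the threshold, among them Col3a1, a fibrillar collagen, at 16 in wild type and 8.95 in knockout. All 15 ependymal genes were below 0, 2 of them past the threshold, and Foxj1, the regulator of motile cilia, was at 5.30 in wild type and 3.66 in knockout. In the choroid plexus list 3 of 14 were lower, and Ttr, transthyretin, the most abundant of them, was at 443 in wild type and 301 in knockout. Over all tested genes 48.9% had a difference below 0.

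Genes induced by neuronal activity had higher values in knockout. Of 24 immediate early genes 12 were higher and none was lower, with a median of 0.50. Arc, a synaptic effector of plasticity, was at 1.79 in wild type and 5.26 in knockout. Egr1, a zinc finger factor, was at 7.66 in wild type and 17.4 in knockout, Egr3 at 7.11 in wild type and 16.1 in knockout and Egr4 at 0.748 in wild type and 2.93 in knockout. Fos was at 3.68 in wild type and 6.73 in knockout, Junb at 2.81 in wild type and 6.97 in knockout, and Npas4, which responds to calcium entry in neurons, at 1.14 in wild type and 2.59 in knockout. Ier2, Ier3, Ier5 and Cyr61 stayed inside the threshold, with differences of 0.02, 0.01, -0.10 and -0.30.

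Of 33 neuronal maturation genes 6 were higher and none was lower, with a median of 0.28. Camk2a, the alpha subunit of a kinase concentrated at excitatory synapses of the forebrain, was at 87 in wild type and 198 in knockout. Slc17a7, the vesicular glutamate transporter of cortical neurons, was at 102 in wild type and 187 in knockout, and Nrgn, neurogranin, at 262 in wild type and 396 in knockout. Shank3, a postsynaptic scaffold gene, was at 17.3 in wild type and 29.7 in knockout. The 7 members with a difference below 0 encode cytoskeletal and growth-associated proteins of axons and ran from -0.38 for Nefm to -0.03 for Stmn2, with Mapt and Tubb3 both at -0.27, Nefl at -0.13, Nefh at -0.10 and Gap43 at -0.09.

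Receptor subunits of synapses were examined beside them. In the glutamate receptor list 2 of 22 were higher and 18 were above 0. They were Grin2c, at 0.926 in wild type and 2.12 in knockout, and Grm2, at 8.63 in wild type and 13.2 in knockout. Among 14 GABA-A receptor genes 2 were higher and 2 were lower. Gabrd was at 4.64 in wild type and 7.64 in knockout, whereas Gabra2 was at 36.4 in wild type and 21.1 in knockout and Gabra6 was as given for the cerebellum. Of 26 interneuron genes 1 was higher and 2 were lower, Gad2 at 27.5 in wild type and 40.6 in knockout, Pvalb at 5.74 in wild type and 3.66 in knockout and Reln, which cerebellar granule neurons also make, at 37.2 in wild type and 24 in knockout.

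The striatum had the highest share of higher genes among the region lists, 7 of 16, with a median of 0.43. Drd1a, the dopamine receptor of the direct pathway, was at 4.15 in wild type and 7.62 in knockout, Adora2a, an adenosine receptor of the indirect pathway, was at 6.25 in wild type and 10.6 in knockout, and Ppp1r1b, which encodes DARPP-32, was at 48.2 in wild type and 70.2 in knockout. Drd2 and Penk were inside the threshold, at 0.41 and 0.46. The exception was Ebf1, at 6.35 in wild type and 2.04 in knockout, a factor that is also made outside the striatum. FPKM values are relative to the whole library, and these higher forebrain values stand beside the lower hindbrain and cerebellar values given above, whose part in them was not tested.

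**Figure D3:**
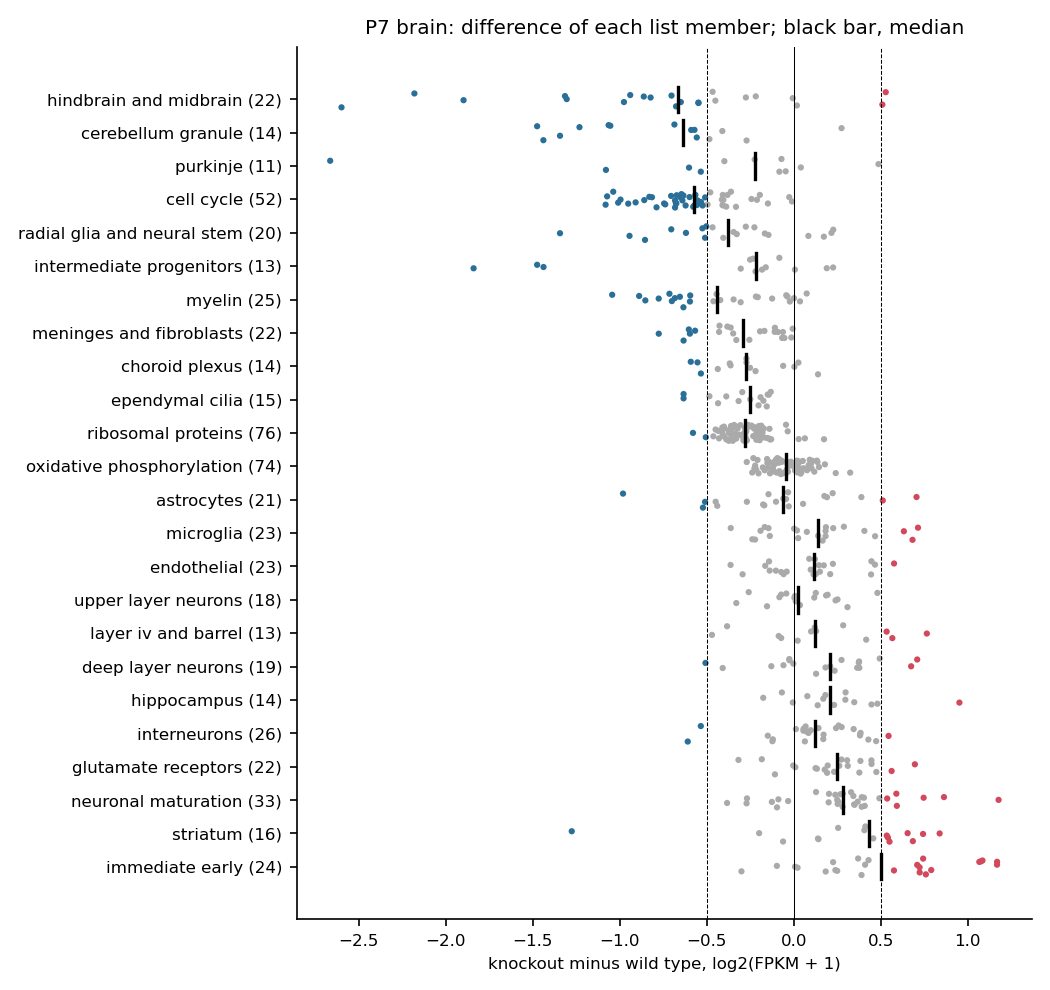
Difference at P7, knockout minus wild type in log2(FPKM + 1), of each tested member of 24 gene lists (number of members in brackets; red, at least 0.5; blue, at most -0.5; gray, between; black bar, list median; dashed lines, the threshold). The hindbrain, cerebellar, cell cycle and myelin lists extend to the left, the immediate early and striatal lists to the right, and the upper layer list stays between the dashed lines.

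**Figure D4:**
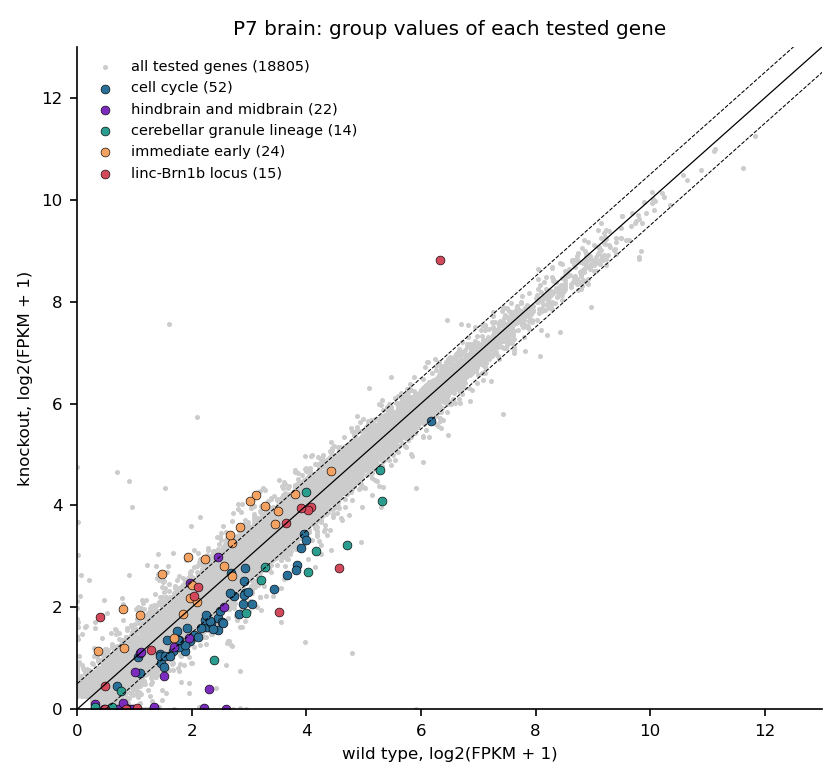
Level of the 18805 tested genes at P7, as log2(FPKM + 1), in wild type (x axis) and knockout (y axis), 1 point per gene, with 5 lists in color; the solid line marks equal values and the dashed lines a difference of 0.5 in size. Cell cycle genes lie below the diagonal and most immediate early genes above it, and 2610017I09Rik, at 79.7 FPKM in wild type, is the red point farthest above it.

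Genes of the protein synthesis machinery shifted by a small amount together. Of 76 cytoplasmic ribosomal protein genes 73 had a difference below 0, against 48.9% of all tested genes. Only 2 were past the threshold, both lower, a share near the 2.88% over all tested genes. They were Rps15a at 52.2 in wild type and 34.6 in knockout and Rpl30 at 449 in wild type and 316 in knockout. The median of the ribosomal list was -0.28 and its summed level was 83.2% of wild type. Many of these genes have processed pseudogenes that can share reads. Of 6 host genes of small nucleolar RNAs 3 were lower and none was higher. Gas5, whose message is short-lived during translation, was at 59.2 in wild type and 19.3 in knockout, Snhg6 was at 55.5 in wild type and 31.4 in knockout and Snhg1 at 31.6 in wild type and 19.2 in knockout. Snhg7 differed by -0.24, and the other members were above 0, Snhg12 at 0.18 and Snhg11 at 0.40. Nuclear genes of oxidative phosphorylation differed little, with none of 74 past the threshold and a median of -0.04.

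The 15 highest and the 15 lowest named genes with at least 1 FPKM in a group were then taken in order. Several of the lowest have been given above: Pomc, Gh, Pcp2, Hoxa5, Hoxb5, Cnpy1, Slc6a5, Mfap4, Pou3f3 and Hmgb2. Others were Snora15, a small nucleolar RNA inside Cct6a, at 58.9 FPKM in wild type and listed at 0 in knockout, Snora78, likewise listed at 0 from 2.22, mKIAA1306, which overlaps Caskin1 and Traf7, at 6.71 in wild type and 0.00207 in knockout, and Rec8, a cohesin subunit of meiosis, at 3.38 in wild type and 0.0296 in knockout. Of the 15 lowest, 7 overlap another entry of the table, and of the 15 highest, 12 do, so the assignment of reads among the overlapping entries is uncertain for them.

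Among the highest, Tuba1c was at 3.23 in wild type and 52.4 in knockout. It encodes an alpha-tubulin with close paralogs, and reads may be shared with them. BC002163, in a merged locus with Zbtb20 at chr16:42876006-43727347, was at 0.620 in wild type and 24.2 in knockout. AK182281, over Tsc2 and Pkd1, was listed at 0 in wild type and at 3.35 FPKM in knockout, Snora44 was listed at 0 and at 26, and Ufd2, an entry over Ube4b, was at 0.861 in wild type and 5.21 in knockout. At E15.5 the order for Snora44 was the opposite, at 48 in wild type and 11.8 in knockout. The order for AK182281 was the opposite at E13.5, at 1.36 in wild type and listed at 0 in knockout. AK215297, over Zmynd11, was at 1.67 in wild type and 7.23 in knockout, AK142681 at 0.349 in wild type and 2.59 in knockout and Cpne1, which encodes a calcium-dependent membrane-binding protein, at 2.18 in wild type and 7.42 in knockout. H2-Bl, a class I histocompatibility gene among many close relatives, was at 0.710 in wild type and 3.52 in knockout. Bcl6, a transcriptional repressor that promotes neurogenesis in the cortex, was at 1.59 in wild type and 5.98 in knockout. The rest were Avp and the Y-linked genes.

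The highest difference of all tested genes belonged to an entry named as a lincRNA. linc-Nsfl1c-1 on chromosome 2 was at 2.04 in wild type and 188 in knockout, a difference of 5.96. linc-4933402J07Rik-5 on chromosome 8 was listed at 0 in wild type and at 11.7 in knockout, and linc-Dbc1 on chromosome 4 was at 0.949 in wild type and 14.7 in knockout. At the low end, linc-Pex2-1 was at 5.62 FPKM in wild type and listed at 0 in knockout, linc-Rps2-AS was at 5.01 in wild type and 0.823 in knockout, and linc-Zic1-1, named after the granule lineage gene Zic1, was at 2.87 in wild type and 0.417 in knockout. Of the 2523 tested entries with XLOC or linc- names 57 were higher and 60 were lower. Neither count exceeds the share over all tested genes, which was 2.79% higher and 2.88% lower.

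Sex-linked genes differed between the groups. Eif2s3y, a Y-linked translation factor gene, was at 0.00727 in wild type and 11.7 in knockout, Ddx3y at 0.0116 in wild type and 7.12 in knockout, Uty at 0.00468 in wild type and 2.29 in knockout and Kdm5d at 0.0122 in wild type and 2.07 in knockout. All 6 tested entries of the Y chromosome, which lie at 4 loci, were higher in knockout. For the Y-linked genes named here the status of OK rested on the knockout value, which favors genes higher in knockout. Over all tested genes 2.79% were higher. On the X chromosome Eif2s3x, which escapes inactivation in females, differed by -0.67, and Ddx3x, another escape gene, was at 135 in wild type and 86.6 in knockout. Kdm6a differed by -0.26 and Kdm5c by 0.09. Mid1, which lies at the edge of the pseudoautosomal region, went the other way, at 1.65 in wild type and 5.26 in knockout, the largest difference of the X-linked list. Y-linked RNA was thus at or near 0 in the wild-type value and present in the knockout value, so genotype and the sex of the animals cannot be told apart at P7. At E15.5 the order was the same, with Ddx3y at 0.00108 in wild type and 4.98 in knockout, and at E13.5 it was the opposite, at 13.6 in wild type and listed at 0 in knockout. Mid1 did not follow the order of the Y-linked genes over the ages. Its difference was 1.43 at E13.5 and 0.05 at E15.5, and the cause was not tested. Without chromosomes X and Y, 503 genes were higher and 524 were lower.

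The earlier ages were set beside P7 as values of other animals and another tissue, the telencephalon. Both groups have 2 libraries at E13.5, while at E15.5 the wild type has 2 and the knockout has 3. At E15.5, 34 of 17434 tested genes were higher (0.195%) and 59 were lower (0.338%). At E13.5, 414 of 17660 were higher (2.34%) and 1017 were lower (5.76%). Of the 524 genes higher at P7, 467 were tested at E15.5, where 10 were past the threshold in the same direction and 4 in the other, and 465 were tested at E13.5, where 62 were in the same direction and 19 in the other. Of the 542 lower at P7, 20 of 467 were lower and 4 higher at E15.5, and 89 of 474 were lower and 19 higher at E13.5. The genes in the same direction at E13.5 were 13.3% of the higher and 18.8% of the lower genes tested at both ages, and 15% and 8.75% of all genes past the threshold in these directions at E13.5.

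Entries past the threshold in the same direction at all 3 ages were few and mostly from the locus. Higher at each age were 2610017I09Rik, linc-Pou3f3-1 and BC017612, and lower were Pou3f3, 2900092D14Rik, linc-Brn1b, AK011913 and Capn11. BC017612 and Capn11 are named here after their values were seen. Pou3f3 differed by -1.14, -1.47 and -1.80 at E13.5, E15.5 and P7. Over the same ages 2610017I09Rik differed by 0.57, 1.85 and 2.49. In wild type 2610017I09Rik was at 165, 191 and 79.7 FPKM, and in knockout at 245, 689 and 453.

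Some genes differed at P7 and E13.5 with little difference at E15.5. In all, 26 genes had a difference of at least 1 in size and the same direction at P7 and E13.5, 16 higher and 10 lower, and 23 of them differed by at most 0.35 in size at E15.5. linc-Nsfl1c-1 was at 2.35 in wild type and 181 in knockout at E13.5, and differed by 0.09 at E15.5. linc-Dbc1 was at 0.714 in wild type and 62.5 in knockout at E13.5, and BC002163 at 0.276 in wild type and 6.10 in knockout. Rec8 was at 3.64 in wild type and 0.101 in knockout and Gas5 at 105 in wild type and 16.3 in knockout. The other 3 of the 26 were AK011913, Pou3f3 and 2900092D14Rik.

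The lists of regions and cell types took other values at the earlier ages. The cell cycle list had medians of -0.16 at E13.5 and 0.04 at E15.5, against -0.57 at P7, and 8 and 0 of its genes were lower. The granule list had medians of 0.18 and -0.03, and the immediate early list of -0.01 and 0.03. In the upper layer list 4 genes were higher at E13.5, with a median of 0.12, and none was past the threshold at E15.5. Ribosomal protein genes had a median of -1.05 at E13.5 and oxidative phosphorylation genes one of -0.85. The choroid plexus list had its lowest median, -1.22, at E15.5.

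**Figure D5:**
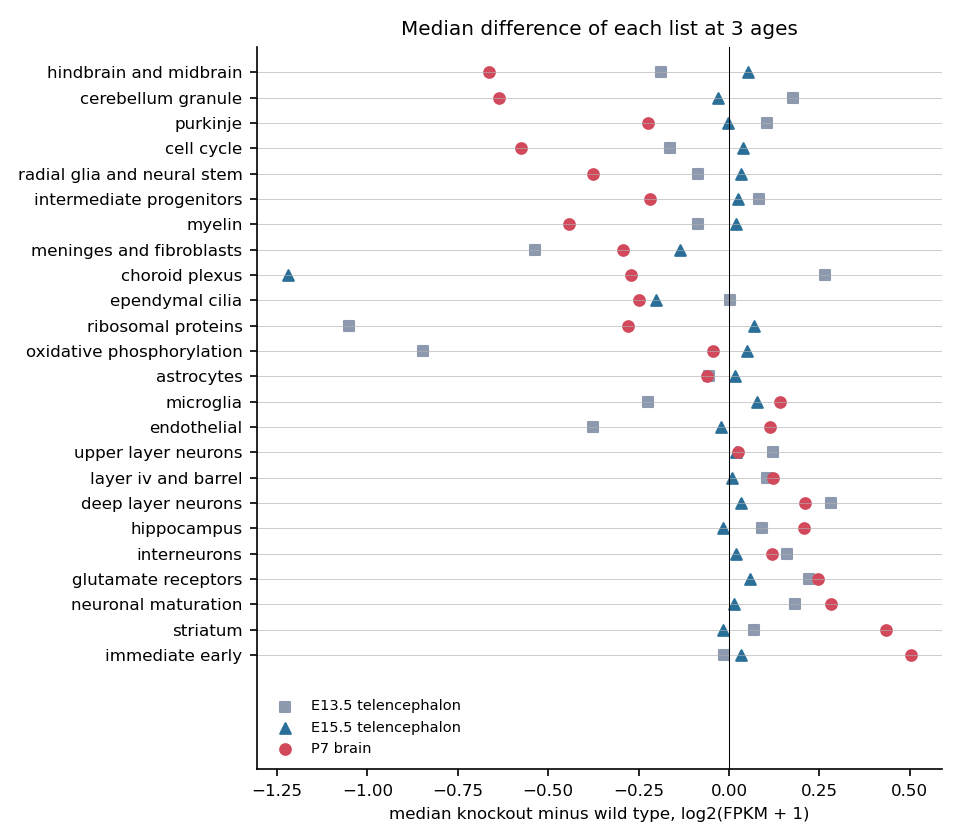
Median difference, knockout minus wild type in log2(FPKM + 1), of 24 gene lists at E13.5 and E15.5 in telencephalon and at P7 in brain (square, triangle and circle; 1 value per group and age, no error). The P7 circle of the granule list is at -0.64 and that of the immediate early list at 0.50, with both embryonic values near 0 for the latter, and the E13.5 square of the ribosomal list is at -1.05.

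The share of genes past the threshold depended on level. The 1 added to FPKM shrinks the differences of genes below 1 FPKM, so a low share there is built into the measure. Among 4330 tested genes below 1 FPKM in both groups it was 1.80%, among 7145 whose higher group was from 1 to 10 FPKM it was 8.47%, among 6587 from 10 to 100 it was 5.16%, and among 743 at 100 FPKM or more it was 5.79%. In the highest class 31 genes were lower and 12 were higher. Of the autosomes, chromosome 14 had the highest share, 8.68% of 680 tested genes, and chromosome 16 the lowest, 4.58% of 611. Chromosome 1, which carries the locus, had 5.39% of 1151, with 21 genes higher and 41 lower. Of all 542 lower genes, 122 (22.5%) were in the gene lists used here, as were 64 of the 524 higher genes (12.2%), so most genes past the threshold are not described by these lists.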

How the data were processed

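Whole-brain RNA of 2 wild-type and 2 linc-Brn1b knockout mice at P7 was made into TruSeq mRNA libraries and sequenced. Per the submitters' processing notes, the authors used TopHat2 and Cufflinks 2.0.2 with the mouse build mm9. The deposited linc-Brn1b table holds FPKM that the authors estimated with Cuffdiff, 1 value per gene and group pooled over the libraries of that group, for each pair of groups. Its columns of log2 fold changes, test statistics, p-values, q-values and significance flags are the authors' own comparisons and were not used. The status column was used only to find the 18805 genes of status OK.

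The difference was log2(FPKM + 1) in knockout minus wild type, with a pseudocount of 1, and the threshold was 0.5 in size. It understates the change of genes near or below 1 FPKM. With 1 value per group no test was made, and the depth per library is unknown. Where a gene is listed at 0 no fold is given. The genes named were those of 48 gene lists, the entries within 1 Mb of linc-Brn1b, the 15 highest and 15 lowest differences among genes with at least 1 FPKM in a group and no XLOC, linc-, Gm or RIKEN name, and the 3 highest and 3 lowest linc- entries. The comparison and the lists were chosen with earlier results of these data known. Oligonucleotides and the RefSeq promoter were placed on mm9 by exact match on both strands. The computation was checked on simulated data and run in Python 3.11.15 with numpy 2.4.6, pandas 2.3.3 and matplotlib 3.10.9. Alternatives were pseudocounts of 0.1 and 0.5, thresholds of 0.3 and 1, a minimum of 1 FPKM, centring, all genes whatever their status, and leaving out chromosomes X and Y or unnamed entries. The tables of the linc-Sox2 and linc-Foxf1a strains were not analysed here. Values of some genes that this rule names are not reported here.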

Additional observations from a re-analysis of the deposited data

Results flagged for a closer look

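Entries outside status OK were not part of the comparison. Of the 46 with at least 1 FPKM in a group, 5 were higher and 15 were lower by at least 0.5. The 3 described here are those higher in knockout by at least 1. Mir7-1, a microRNA gene, was listed at 0 in wild type and at 131.9 FPKM in knockout, and Mir760 was listed at 0 in wild type and at 16.4 in knockout. The order of the groups for Mir760 was the opposite at E15.5, at 44.9 in wild type and listed at 0 in knockout. FPKM of entries as short as a microRNA precursor rest on few fragments relative to their value. AK132630, at chr12:22685345-23047238, was at 2.21 FPKM in wild type and 8.01 in knockout, and at 1.55 and 10.3 at E13.5. These differences were not tested.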

How the results depend on the processing

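No paired analysis was possible because the table gives 1 pooled value per group and none per library, and for the same reason no library could be left out. The counts depend on the pseudocount and the threshold. With a pseudocount of 0.1 there were 1333 higher and 1510 lower genes, and with 0.5 there were 859 lower. A threshold of 0.3 gave 1838 and 1700, and a threshold of 1 gave 68 and 78. The medians of some lists moved by more than 0.21, the robust spread over genes. Under a pseudocount of 0.1 they were -1.28 for cerebellar granule, -2.14 for hindbrain and midbrain, -0.46 for ependymal, -0.79 for cell cycle and 5.27 for Y-linked genes. Under 0.5 they were -0.95 for cerebellar granule, -1.08 for hindbrain and midbrain and 3.18 for Y-linked genes. With a minimum of 1 FPKM they were -1.06 for cerebellar granule and 0.47 for hypothalamus and pituitary genes. Counting each list once per setting, the other 181 values of list medians moved less. Counted likewise, 72 values of the 51 named extreme and locus genes moved, all under the smaller pseudocounts. No difference or median of at least 0.5 in size changed sign. Among those near 0, the skeletal muscle median went from -0.02 to 0.11 with a minimum of 1 FPKM, which leaves 3 of its genes, and AI597479 went from 0.0088 to -0.0031 with centring.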

Other observations

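Stress programs took values close to the bulk of genes at P7. None of 20 heat shock and endoplasmic reticulum chaperone genes and none of 18 hypoxia genes was past the threshold, with medians of -0.03 and 0.11. Among 26 genes of the amino acid response, Slc7a11, a cystine transporter, was at 8.47 in wild type and 14.4 in knockout and Phgdh, the first enzyme of serine synthesis, which is high in astrocytes and progenitors, was at 51.6 in wild type and 34.8 in knockout, with a list median of -0.01. The interferon and antigen presentation list had a median of -0.08 over 24 genes, and Tap1, a peptide transporter, was at 2.28 in wild type and 1.23 in knockout. Cholesterol synthesis genes had a median of 0.06, glucocorticoid and clock genes one of 0.13, macrophage and blood leukocyte genes one of -0.06, red cell genes one of -0.04, muscle genes one of -0.02, and retinal and pineal genes one of -0.02 with 4 tested.

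Growth genes were read beside them. Igf1 was at 6.21 in wild type and 6.19 in knockout and its receptor Igf1r at 5.24 in wild type and 5.22 in knockout, Igf2, which is made by the meninges and choroid plexus, was at 76.5 in wild type and 58.5 in knockout, and Irs2, an insulin receptor substrate, was at 5.56 in wild type and 8.36 in knockout. The growth hormone and IGF list had a median of -0.0046. Among 16 imprinted genes, Cdkn1c, a cell cycle inhibitor, was at 11.5 in wild type and 7.09 in knockout, and the list median was 0.02. Of 12 other noncoding RNAs of the brain 1 was past the threshold, Mirg at 0.0904 in wild type and 0.697 in knockout, and the list median was 0.05. Neat1 was at 1.94 in wild type and 2.95 in knockout, Snhg11 at 137 in wild type and 182 in knockout and Meg3 at 457 in wild type and 588 in knockout, all higher in value but inside the threshold, while Rian was at 412 in wild type and 408 in knockout and Tug1 at 39.7 in wild type and 37.9 in knockout.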
